A study of Mus musculus with 4 samples.

Results

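Cyclins and their kinases were examined in a bead preparation of lung endothelial cells (ECs) from mice that had lost 1 lung. The 10 genes were the D cyclins Ccnd1, Ccnd2 and Ccnd3, the E cyclins Ccne1 and Ccne2, the A and B cyclins Ccna2, Ccnb1 and Ccnb2, and the kinases Cdk1 and Cdk2. They were chosen by symbol and not by a rule on measured values, though earlier results of these data were known. All 10 were found among the 24063 gene symbols of the deposited tables. Each symbol was read from the transcript that had the most reads over the 4 libraries.

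RNA-seq was performed on cells drawn from lungs of C57BL6 mice (C57BL6J in the methods of the study), labelled as 8 week old males, with magnetic beads against CD31, a surface protein of ECs. In the PNX group the left lung had been removed by unilateral pneumonectomy (PNX) 7 days earlier, which is followed by growth of the lung that stays. Sham mice had the chest opened and kept both lungs. There were 2 libraries per group, each pooled from 2 mice, so that the p-values rest on pools and not on single mice. They are no full measure of the spread between pools. For 5 of the genes, Ccne1, Ccna2, Ccnb1, Ccnb2 and Cdk1, the standard error was smaller than counting error alone gives. The labels name no transgene or mutant allele for either group.

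Libraries held between 41367438 and 50952879 counts with 1 transcript per symbol, so that 3 counts corresponded to 0.0589 to 0.0725 CPM (counts scaled to a common library size). Libraries of a group differed little more than counting allows, with a mean chi-square per gene of 1.74 in sham and 1.51 in PNX, against 114 to 128 between groups. The libraries went against their label on sex, since the 44 chromosome Y genes had 0 counts in every library while Xist, which is transcribed from the inactive X chromosome, had 29890 to 36875. All 4 libraries shared this, so it did not separate the groups. Pecam1, which encodes CD31, had 81320 to 100203 counts per library and a log2 fold change of -0.01 (adjusted p = 0.636, edgeR's quasi-likelihood test).

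A cyclin has no catalytic activity of its own. It binds and activates a cyclin-dependent kinase (CDK) and helps to choose its substrates, and the waves of cyclin synthesis and destruction give the cell cycle its order. D cyclins respond to growth factors and act with Cdk4 and Cdk6 in G1, E cyclins act with Cdk2 at the start of DNA synthesis, cyclin A2 acts with Cdk2 and Cdk1 through S and G2, and the B cyclins act with Cdk1 to drive mitosis. In the adult lung most ECs are quiescent, and D cyclin mRNAs can be present in cells that do not divide, whereas the mRNAs of cyclin A2, the B cyclins and Cdk1 accumulate only as cells pass through S, G2 and M.

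All 10 genes passed the filter on low counts. The mRNAs of the S, G2 and M phase cyclins and of Cdk1 rose most after PNX, those of the E cyclins less, and those of D cyclins and Cdk2 changed least, with Ccnd2 lower. In the quasi-likelihood test of edgeR, with Benjamini-Hochberg adjusted p-values for 16208 genes, 6 of the 10 had a log2 fold change above 1 at an adjusted p under 0.01, against 5.9% of all genes, and 0 had one under -1, against 1.66% of all genes. DESeq2 gave the same 6 and 0, and 1 of the 10, Ccnd2, was lower at an unadjusted p under 0.05 in edgeR. At an adjusted p under 0.01 whatever the fold, 9 of the 10 were higher, against 29.3% of all genes, and 1 was lower, against 27.8%. Below, a gene that rose or fell is one with an adjusted p under 0.01 in that test. The libraries of the groups did not overlap for any of the 10 genes, with PNX above sham in 9 and below it in 1, and this was common, at 40.8% of all genes with PNX above and 40.5% with PNX below. Their median log2 fold change was 1.73, and that of all genes tested was 0.0012. In pooled cells from CD31 beads, fewer cells of a type and less RNA per cell cannot be told apart, and the same holds for more cells and more RNA.

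**Figure D1:**
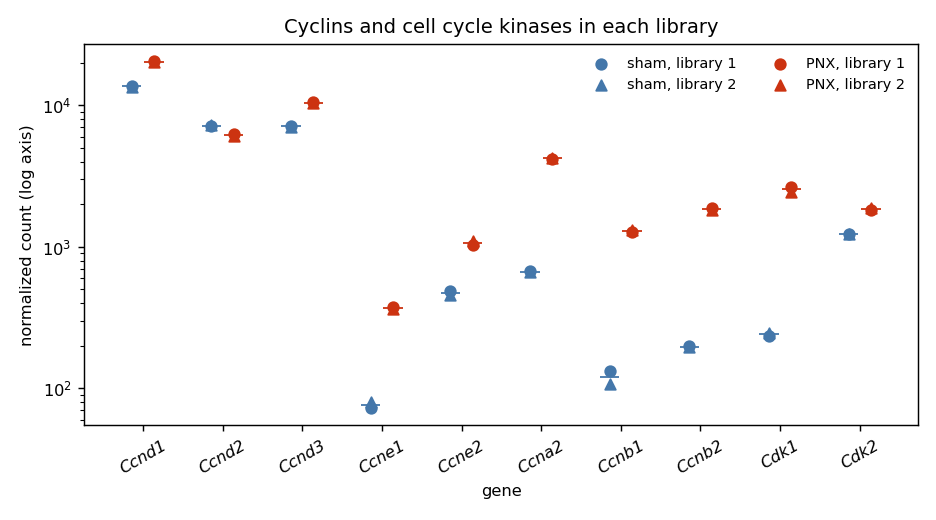
Normalized counts of each of the 10 genes on a log axis, with a circle for library 1 and a triangle for library 2 of each group (sham blue, PNX red) and a short line at the group mean. The points of the groups are apart for every gene, with the widest gaps for Cdk1, Ccnb1 and Ccnb2, and Ccnd2 is the one gene with the PNX points below the sham points.

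Promoters of the genes are shown first, since those of mitotic genes are known for an arrangement of short motifs. CCAAT boxes bind NF-Y, the cell cycle homology region binds the MuvB complex that represses these genes in quiescent cells, and E2F sites bind E2F factors, which drive genes of S phase. RefSeq windows of 300 bases, from 250 before the start site to 50 after it, were matched by symbol for 6 of the 10 genes. They were searched on both strands. The CCAAT box was searched by its own letters. The cell cycle homology region was searched as TTTGAA alone, and no other spelling of it was tried. E2F sites were TTTCCCGC, TTTCGCGC, TTTGCCGC or TTTGGCGC. The GC box was GGGCGG. No match overlapped a match of another motif. The windows of Cdk1, Ccnb2 and Ccnb1 are printed because these genes rose most, and those of Cdk2 and Ccne1 because they belong to the steps before mitosis. All are 5′ to 3′ in the sense of the gene, on the minus strand of GRCm38.p6, and capitals mark matches of the CCAAT box, the homology region and the E2F site on either strand. The windows lie at chr10:69352863-69353162 for Cdk1, chr9:70421505-70421804 for Ccnb2, chr13:100786437-100786736 for Ccnb1, chr10:128705002-128705301 for Cdk2 and chr7:38107441-38107740 for Ccne1.
Cdk1: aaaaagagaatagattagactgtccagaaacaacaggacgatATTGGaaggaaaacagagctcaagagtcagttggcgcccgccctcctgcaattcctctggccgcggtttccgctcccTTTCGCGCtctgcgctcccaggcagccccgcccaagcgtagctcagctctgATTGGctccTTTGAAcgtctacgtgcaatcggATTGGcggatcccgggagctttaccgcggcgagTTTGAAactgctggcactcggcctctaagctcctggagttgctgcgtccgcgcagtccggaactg
Ccnb2: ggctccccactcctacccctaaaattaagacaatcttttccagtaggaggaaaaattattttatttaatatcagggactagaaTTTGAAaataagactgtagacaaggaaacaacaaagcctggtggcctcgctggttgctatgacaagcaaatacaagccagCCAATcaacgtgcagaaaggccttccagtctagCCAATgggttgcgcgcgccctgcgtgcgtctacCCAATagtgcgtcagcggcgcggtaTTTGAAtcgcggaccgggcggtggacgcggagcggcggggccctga
Ccnb1: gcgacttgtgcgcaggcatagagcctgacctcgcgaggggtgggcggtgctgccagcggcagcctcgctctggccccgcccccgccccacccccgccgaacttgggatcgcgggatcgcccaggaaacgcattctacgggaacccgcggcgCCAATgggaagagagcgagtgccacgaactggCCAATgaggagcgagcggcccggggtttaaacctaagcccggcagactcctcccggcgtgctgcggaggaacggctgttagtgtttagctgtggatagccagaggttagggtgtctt
Cdk2: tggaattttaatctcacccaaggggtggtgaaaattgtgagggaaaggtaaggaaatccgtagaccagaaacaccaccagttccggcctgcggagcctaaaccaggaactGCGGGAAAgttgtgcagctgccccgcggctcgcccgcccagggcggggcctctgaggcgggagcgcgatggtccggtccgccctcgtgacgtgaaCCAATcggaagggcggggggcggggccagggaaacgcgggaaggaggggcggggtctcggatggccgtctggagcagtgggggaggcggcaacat
Ccne1: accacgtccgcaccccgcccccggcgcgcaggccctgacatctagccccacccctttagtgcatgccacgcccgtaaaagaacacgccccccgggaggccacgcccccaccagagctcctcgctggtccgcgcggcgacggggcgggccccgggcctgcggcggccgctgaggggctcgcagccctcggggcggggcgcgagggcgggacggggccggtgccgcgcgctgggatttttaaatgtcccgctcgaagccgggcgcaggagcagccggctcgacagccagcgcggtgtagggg

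The Cdk1 window held 3 CCAAT boxes, all read on the opposite strand and starting 208, 80 and 48 bases before the start site. It also held 2 TTTGAA matches, at -71 to -66 and -15 to -10, and an E2F match at -131 to -124. The Ccnb2 window held 3 CCAAT boxes, starting 87, 54 and 21 bases before the start site, and 2 TTTGAA matches at -167 to -162 and 5 to 10. Successive boxes of Ccnb2 started 33 bases apart, and the pair nearest the start site in Cdk1 32 bases apart. The Ccnb1 window held 2 CCAAT boxes, at -99 to -95 and -67 to -63 and so 32 bases apart, and the letters TTTGAA were not in it. Of the 32851 mouse windows in the table, 37.4% held a CCAAT match, 17.9% a TTTGAA match and 2.27% an E2F match, and 2.09% held at least 2 CCAAT boxes together with TTTGAA, as Cdk1 and Ccnb2 did.

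The Cdk2 window held 1 CCAAT box, at -45 to -41, an E2F match read on the opposite strand at -140 to -133 and 6 GC boxes. The Ccne1 window held 4 GC boxes, which are not in capitals, and no other match. Of the Ccnd3 windows, which belong to separate start sites, the upstream one held 2 GC boxes, and the downstream one held 1 CCAAT box, starting 108 bases before the start site, with 2 GC boxes. GC boxes were found in 35.7% of all windows. A match is a description of letters and not of a bound factor. Ccnd1, Ccnd2, Ccne2 and Ccna2 had no window in the table.

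**Figure D2:**
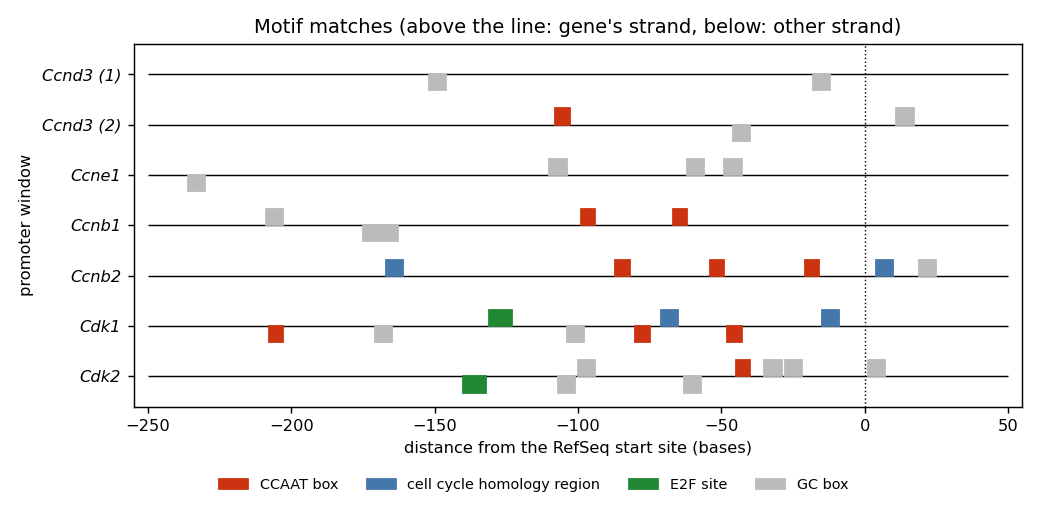
Motif matches in the promoter windows of 6 of the genes (7 windows), by distance in bases from the start site, with 1 line per window and 1 colour per motif, and with boxes above the line for matches on the strand of the gene and below it for the other strand. The windows of Cdk1 and Ccnb2 hold 3 CCAAT boxes and 2 TTTGAA matches each, and that of Ccne1 holds GC boxes alone.

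The D cyclins, which carry growth factor signals to the Rb pathway, did not move together. Ccnd1 and Ccnd3 rose by less than 2-fold and Ccnd2 fell. Counts were normalized to the mean library size with the trimmed mean of M-values (TMM) of edgeR. Ccnd1 (chr7:144929931-144939831) had 13730 and 13562 normalized counts in sham and 20505 and 20345 in PNX. Libraries of a group lay close together, and both PNX libraries were above both sham libraries. The log2 fold change was 0.58 (SE 0.0195, adjusted p = 2.1e-35), a fold of 1.5. Ccnd3 (chr17:47505051-47599689) had 7163 and 7047 in sham and 10603 and 10361 in PNX, both PNX libraries above both sham libraries. Its log2 fold change was 0.56 (SE 0.0226, adjusted p = 3.1e-31).

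Ccnd2 (chr6:127125162-127152188) had 7119 and 7230 normalized counts in sham and 6260 and 6117 in PNX. Both PNX libraries lay below both sham libraries, with a mean of 7174 ± 78.3 in sham and 6188 ± 101 in PNX (SD, n = 2). The log2 fold change was -0.21 (SE 0.0243, adjusted p = 1.7e-11). This direction depended on what the libraries were scaled to. Scaled to 12 EC marker genes, which raised the median log2 fold change of all genes to 0.26, the change of Ccnd2 was 0.05 (adjusted p = 0.0825, edgeR's test). The 12 markers did not move alike, with log2 fold changes from -0.54 (Eng) to 0.11 (Emcn) under TMM. Their summed counts set this scaling, so the shift depends on which markers are used.

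Expressed per length, the D cyclins were the most abundant of the 10 genes in sham. FPKM values, fragments per kilobase of transcript scaled to library depth, were 48.8 ± 0.408 for Ccnd1, 45.6 ± 0.51 for Ccnd3 and 16.9 ± 0.19 for Ccnd2 (SD, n = 2). Within the summed FPKM of the 3 D cyclins, the share of Ccnd2 was 15.0% and 15.4% in sham and 9.44% and 9.37% in PNX. Ccnd1 took 43.9% ± 0.0798 in sham and 47.2% ± 0.268 in PNX, and Ccnd3 took 41.0% ± 0.191 and 43.4% ± 0.22. The ratio of Ccnd1 to Ccnd3 moved little, from 1.07 to 1.09, and that of Ccnd1 to Ccnd2 went from 2.89 to 5.02. These ratios within a library do not depend on how the libraries are scaled.

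E cyclins, which switch on Cdk2 at the entry to S phase, both rose, and by unequal amounts. Ccne1 (chr7:38097984-38107490) had the lowest FPKM of the 10 genes in both groups. It had 80 and 78 raw counts in sham and 382 and 328 in PNX. Normalized, these were 72.5 and 79.5 against 375 and 366, with the groups far apart. The log2 fold change was 2.29 (SE 0.118, adjusted p = 8.3e-26), a fold of 4.88. Ccne2 (chr4:11190433-11204779) had 486 and 457 normalized counts in sham and 1040 and 1093 in PNX, again with no overlap. Its log2 fold change of 1.17 (SE 0.0599, adjusted p = 4.4e-26) was past 1 but close to it. A test of whether the fold itself exceeds 2 (edgeR's glmTreat) gave Ccne2 an adjusted p of 0.016, above the threshold of 0.01. The FPKM ratio of Ccne2 to Ccne1 was 4.22 and 3.61 in sham and 1.74 and 1.88 in PNX.

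Cdk2 (chr10:128697938-128705051), the kinase partner of the E cyclins and of cyclin A2, had 1238 and 1224 normalized counts in sham and 1815 and 1883 in PNX. Both PNX libraries were higher, and the gap between the groups was many times the spread within them. The log2 fold change was 0.58 (SE 0.0423, adjusted p = 4.5e-19), close to those of Ccnd1 and Ccnd3 and below those of both E cyclins. Several transcripts were annotated for Ccnd3 (3), Ccne2 (3) and Cdk2 (2), and the counts of the transcripts of each differed by at most 1.01%, 0.446% and 1.33%. Reads that overlap several transcripts were counted for each, so isoforms cannot be told apart.

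Cyclin A2, the B cyclins and Cdk1, which carry cells from S phase through mitosis, all rose by more than 6-fold. Ccna2 (chr3:36564865-36573038) had 676 and 664 normalized counts in sham and 4188 and 4252 in PNX. Its log2 fold change was 2.65 (SE 0.04, adjusted p = 4.3e-54), the smallest of the 4 genes and the one with the most counts. Ccnb1 (chr13:100778739-100786486), whose product enters the nucleus as mitosis begins, had 133 and 108 in sham and 1266 and 1306 in PNX. The sham libraries of Ccnb1 differed from each other by more than those of the other 3 genes relative to their mean. Its log2 fold change was 3.40 (SE 0.0787, adjusted p = 5.7e-44), a fold of 10.6.

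Ccnb2 (chr9:70407689-70421554), the second mitotic B cyclin, had 199 and 195 normalized counts in sham and 1881 and 1810 in PNX, a log2 fold change of 3.23 (SE 0.0634, adjusted p = 7.7e-48). Cdk1 (chr10:69335146-69352912), the kinase that both B cyclins activate, had 236 and 247 in sham and 2661 and 2454 in PNX. Its log2 fold change of 3.41 (SE 0.0584, adjusted p = 4.6e-51) was the highest of the 10 genes, and it differed from that of Ccnb1 by less than their errors. Cdk1 and Ccnb2 are the genes whose windows above hold both CCAAT boxes and TTTGAA. For 5 genes, Ccne1, Ccna2, Ccnb1, Ccnb2 and Cdk1, the standard error taken from edgeR's F (0.04 to 0.118) was smaller than counting error alone gives (0.0418 to 0.127). DESeq2 gave these genes errors of 0.0609 to 0.187, which leave each fold change many errors from 0.

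**Figure D3:**
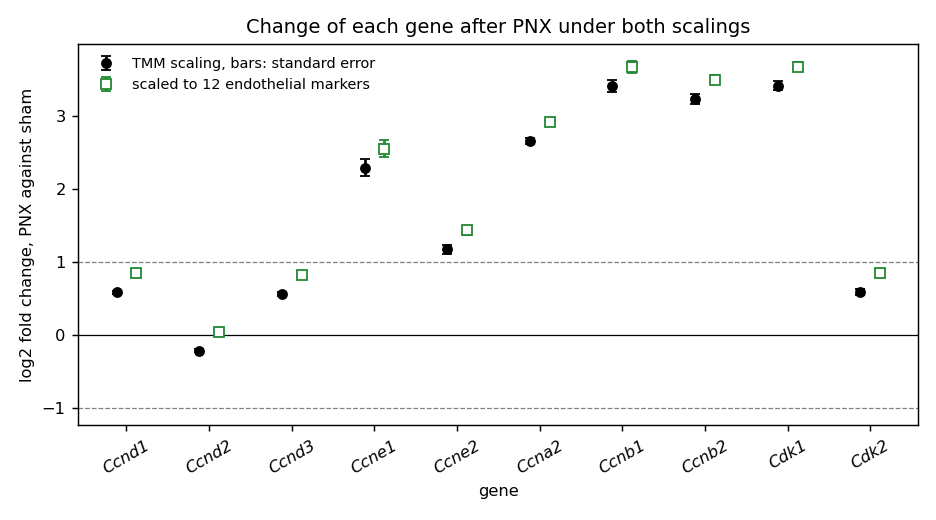
Log2 fold change after PNX of the 10 genes in edgeR's fit, with bars of 1 standard error and dashed lines at 1 and -1. Black circles are TMM scaling and open green squares are scaling to 12 EC markers, which lie higher for every gene. With TMM, Cdk1, Ccnb1, Ccnb2, Ccna2, Ccne1 and Ccne2 lie above the line, Cdk2, Ccnd1 and Ccnd3 lie between 0.56 and 0.58, and Ccnd2 lies at -0.21 (0.05 with EC markers).

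Levels per length changed their order between the groups. In sham the order by FPKM was Ccnd1, Ccnd3, Ccnd2, Cdk2 (6.88 ± 0.0533), Ccna2 (3.24 ± 0.0405), Ccne2 (2.06 ± 0.0912), Ccnb2 (1.74 ± 0.028), Cdk1 (1.15 ± 0.0379), Ccnb1 (0.707 ± 0.104) and Ccne1 (0.528 ± 0.0348). In PNX it was Ccnd1 (73.5 ± 0.539), Ccnd3 (67.6 ± 1.22), Ccna2 (20.5 ± 0.183), Ccnb2 (16.4 ± 0.476), Ccnd2 (14.7 ± 0.264), Cdk1 (12.2 ± 0.723), Cdk2 (10.4 ± 0.252), Ccnb1 (7.59 ± 0.154), Ccne2 (4.68 ± 0.158) and Ccne1 (2.59 ± 0.0535). No neighbours in either order overlapped between libraries, though with 2 libraries per group this is a weak statement. Ccna2 and Ccnb2 thus stood above Ccnd2 in PNX and below it in sham. Cdk1 stood below Cdk2 in sham and above it in PNX.

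The summed FPKM of the 3 D cyclins was 111 ± 0.728 in sham and 156 ± 2.03 in PNX, while that of Ccna2, Ccnb1 and Ccnb2 was 5.68 ± 0.173 and 44.5 ± 0.139 (SD, n = 2). The E cyclins summed to 2.59 ± 0.0564 and 7.27 ± 0.104. The cyclins of S, G2 and M thus came closer to the D cyclins without reaching them. The kinase ratio turned over, with Cdk2 at 6.18 and 5.84 times Cdk1 in sham and 0.802 and 0.903 times in PNX.

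Ratios among the mitotic genes differed in how far they moved. The ratio of Cdk1 to Ccnb1 was 1.43 and 1.85 in sham and 1.70 and 1.52 in PNX, so that the groups overlapped. The ratio of Ccnb2 to Ccnb1 was 2.25 and 2.71 in sham against 2.23 and 2.08 in PNX, a difference no larger than the spread in sham. Ccna2, which acts earlier in the cycle than the B cyclins, rose less than they did, and its ratio to Ccnb1 was 4.18 and 5.06 in sham and 2.73 and 2.68 in PNX. Its ratio to Cdk1 went from 2.83 ± 0.129 to 1.68 ± 0.115.

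**Figure D4:**
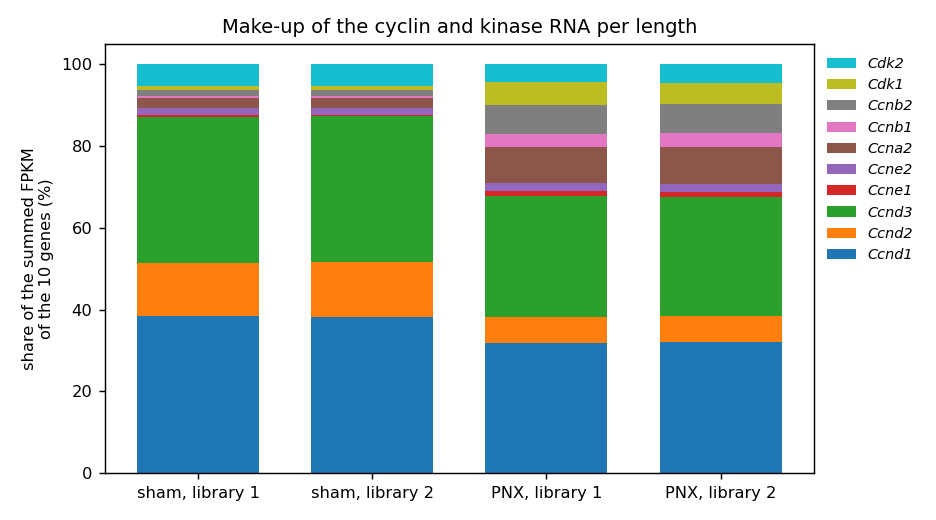
Share of each gene in the summed FPKM of the 10 genes, as 1 stacked bar per library that starts at 0. The bars of a group look alike, and the shares of Ccna2, Ccnb1, Ccnb2 and Cdk1 are wider in both PNX bars than in both sham bars, with the shares of Ccnd1 (38.3% in sham, 31.9% in PNX), Ccnd2 and Ccnd3 narrower.

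The genes that control these kinases were read from lists of the pathway, whose counts stand against the shares over all genes, 5.9% higher and 1.66% lower past both thresholds and 29.3% and 27.8% at any fold. The partners that act on Cdk1 and Cdk2 directly all rose, 7 of 7, and 4 of them passed both thresholds (median log2 fold change 1.15). Cdc25c, a phosphatase that removes the inhibitory phosphates from Cdk1, had 28 and 21 counts in sham and 311 and 299 in PNX (log2 fold change 3.75). Cdc25b had a log2 fold change of 0.68 and Cdc25a, which acts at the entry to S phase, 0.55, the lowest of the list. The other 3 past both thresholds, named after their values were seen, were Wee1 (1.15), a kinase that places the inhibitory phosphate, and the CDK subunits Cks1b (2.20) and Cks2 (1.80). An activating phosphatase and an inhibitory kinase thus rose in the same libraries.

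All 13 mitotic and checkpoint kinases passed both thresholds, with log2 fold changes from 1.45 to 3.96 and a median of 2.68. Pbk, a mitotic kinase, had 106 and 92 counts in sham and 1513 and 1325 in PNX, a log2 fold change of 3.96 that exceeded that of Cdk1. Bub1b, a spindle checkpoint protein, had the most counts (2.03), and Cdc7, which fires replication origins, was the lowest (1.45). Among the cycling cell markers, Mki67 rose by 2.91 and Top2a by 3.05 on the log2 scale, and Pcna, a clamp of replication and repair, by 0.73.

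Of 11 genes of cyclin destruction, 5 passed both thresholds, 6 rose in all, 2 fell and 3 did not pass (median 0.47). Ube2c, the ubiquitin enzyme that works with the anaphase-promoting complex (APC/C) on B cyclins, had 152 and 150 counts in sham and 1803 and 1603 in PNX (log2 fold change 3.62). The other 4 past both thresholds, named after their values were seen, were the APC/C activator Cdc20 (3.25), the APC/C inhibitor Fbxo5 (1.46), Skp2 (1.12), which recognizes the CDK inhibitor p27, and the enzyme Ube2s (1.02). With glmTreat 3 of the 11 passed. Cul1, a ligase scaffold of the SCF complex, fell (-0.15), and was higher (0.11) under scaling to EC markers.

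Of the 7 CDK inhibitors tested, 1 passed both thresholds, Cdkn2c (p18), which binds Cdk4 and Cdk6. It had 902 and 780 counts in sham and 2898 and 2508 in PNX, a log2 fold change of 1.81. Cdkn1a (p21), with the most counts, rose by 0.11, and Cdkn2b (p15) fell (-0.39, and -0.13 with an adjusted p of 0.0237 under scaling to EC markers). Counted at any fold, 3 rose, 2 fell and 2 did not pass, with a median of 0.12, and in a list of 7 these counts are near the 29.3% higher and 27.8% lower of all genes. Cdkn2d (p19), named after its values were seen, was just under the threshold of 1 (0.9996 on the log2 scale), and the count past both thresholds was 2 without sham replicate 2 or without PNX replicate 1.

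Of the 16 regulators of the Rb, E2F, MuvB and Foxm1 network, 5 passed both thresholds, 10 rose in all, 4 fell and 2 did not pass (median 0.66). Foxm1, a transcription factor of G2 and M genes, had 417 and 336 counts in sham and 2423 and 2073 in PNX (log2 fold change 2.70). The others past both, named after their values were seen, were E2f8 (2.57), E2f7 (2.51), Mybl2 (2.38) and E2f1 (1.40). Rb1, with the most counts, fell (-0.20), and so did Lin52, a subunit of MuvB (-0.38). Neither fall held under scaling to EC markers, where Rb1 was at 0.06 and Lin52 at -0.12 (adjusted p = 0.049 and 0.0408 in edgeR's test).

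Of 7 other cyclins and kinases of the cell cycle that were tested, 2 passed both thresholds, 3 rose in all, 1 fell and 3 did not pass (median 0.16). Cdk4, a partner of D cyclins, had 4179 and 3692 counts in sham and 5516 and 4975 in PNX, a log2 fold change of 0.54 that was near those of Ccnd1 and Ccnd3. Cdk6, the other partner, named after its values were seen, was at -0.15 on the log2 scale (adjusted p = 0.0469, edgeR's test). Ccnf, a cyclin that works in ubiquitin ligation, rose by 2.63, and Ccna1, at 8 and 11 counts in sham and 32 and 30 in PNX, by 1.81. Cdk7, which activates other CDKs, fell (-0.21, and 0.04 with an adjusted p of 0.32 under scaling to EC markers). Ccnb3 had at most 1 count per library and was not tested. With glmTreat, or with genes of a mean of at least 50 counts only, 1 of this list passed.

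The cyclins and kinases of transcription belong to the same families and act on RNA polymerase II. Of the 12 tested, 0 passed both thresholds in edgeR's test and 0 in DESeq2's, and 8 had an unadjusted p under 0.05 in edgeR's. At an adjusted p under 0.01, 1 rose and 6 fell, with a median of -0.10, and under scaling to EC markers 8 were higher and 1 lower, with a median of 0.16. Cdk19 had the highest log2 fold change of the list, 0.10, and Ccnt1, a partner of Cdk9 in transcript elongation, the lowest, -0.49.

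**Figure D5:**
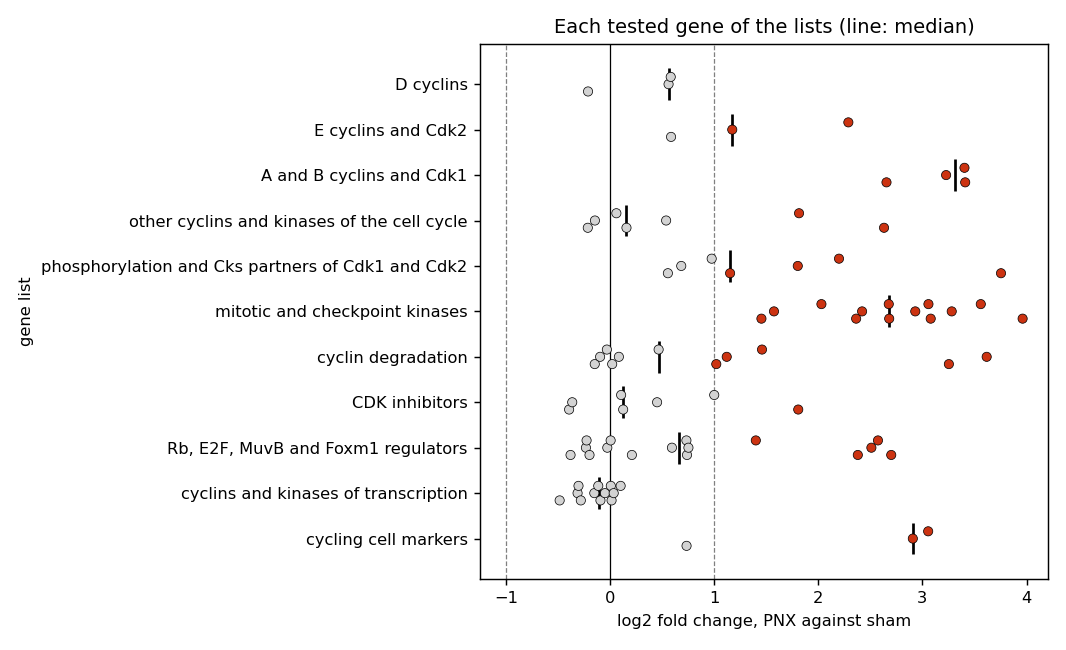
Log2 fold change after PNX of each gene in the pathway lists, 1 point per gene and 1 row per list, with a bar at the list's median, dashed lines at 1 and -1 and red for genes past both thresholds. All 13 mitotic and checkpoint kinases lie right of 1, and the 12 cyclins and kinases of transcription lie between -0.49 and 0.10 with TMM scaling.

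Markers of other cell types moved with the groups as well, and higher and lower are again at an adjusted p under 0.01. The study reports that the bead-bound cells were enriched over another column and checked by flow cytometry for EC markers. The bead preparation still held RNA of non-endothelial cells, so the values below apply to every result above. The part of these cells in those results was not tested. The summed level of 12 EC markers was 11568 to 11694 CPM in sham and 9736 to 9740 in PNX. Of the 12, 10 were lower and 1 higher. Cdh5, the EC cadherin, had the most counts of these markers (-0.22), at 85472 to 121244 per library. Sftpc of the epithelial list had 99309 to 189059 and Lyz2 of the macrophage list 141730 to 170139, each above Cdh5 in every library. No marker that was analysed was at 0 in all libraries for any cell type. Macrophage markers, 7 of 7 tested higher, with the listed Adgre1 not analysed here, summed to 3562 to 3576 CPM in sham and 4627 to 4654 in PNX. Fibroblast markers, 4 of 6 higher and 1 lower, went from 937 to 948 up to 2943 to 2962, and Col1a2, a fibrillar collagen chain, had the most counts (log2 fold change 2.08).

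Mesothelial markers, 5 of 5 higher, summed to 211 to 214 CPM in sham and 459 to 466 in PNX. Markers of cavity macrophages, 4 of 4 higher, summed to 40.7 to 41.3 and 154 to 155, and those of pericytes and smooth muscle, 4 of 5 higher, to 292 to 295 and 382 to 384. Platelet markers, 3 of 4 higher, summed to 37.6 to 38.3 and 61.5 to 61.8, neutrophil markers, 4 of 5 higher and 1 lower, to 204 to 210 and 230 to 238, and erythroid markers, 2 of 4 higher, to 49.8 to 50.6 and 55.9 to 59.4. Lower in PNX were epithelial markers, 8 of 8, from 9119 to 9170 down to 5501 to 5591, B cell markers, 5 of 5, from 134 down to 74.2 to 77.7, and T cell markers, 5 of 5, from 63.8 to 64.1 down to 48.1 to 48.4. The cells that carry the cyclin mRNAs were thus not identified in these libraries.

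The genes most like the extremes were found by the distance between log2 normalized counts, centred on each gene, over the 4 libraries and 13402 genes with a mean of at least 100. Nearest to Cdk1 were Cma1 (distance 0.0977), a mast cell protease, Kif22 (0.099), a mitotic kinesin, and Depdc1a (0.114). Cma1 had 28.1 and 30.6 normalized counts in sham and 315 and 277 in PNX. Nearest to Ccnd2 were Bsdc1 (0.003), Dvl1 (0.0073) and Mterf4 (0.0084). With 4 libraries in 2 groups, a gene is near another mostly by having the same fold change.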

How the data were processed

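Lung cells bound to CD31 beads were sequenced as stranded, paired-end mRNA libraries (2 sham, 2 PNX). The authors aligned reads to mm10, and the submitters' processing notes name STAR, without a version. The counting program is not given in the sources used here. The deposited tables hold, per RefSeq transcript, a count of reads and an FPKM. A read overlapping several transcripts was counted for each. The deposited FPKM divides by transcript length and by the total over all transcripts. TPM values were not used.

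From the counts, the transcript with the most reads per symbol was kept and tested with edgeR 4.0.16 in R 4.3.3 (filterByExpr, TMM, quasi-likelihood F test, Benjamini-Hochberg over all genes tested), without a replicate block. Standard errors are the log2 fold change divided by the square root of F. Thresholds were a log2 fold change beyond 1 in size and an adjusted p under 0.01. DESeq2 1.42.0 and glmTreat were alternatives, and both of these tests and that of edgeR were tried on simulated data. All 10 genes are named. Of each pathway list the genes with the highest and the lowest log2 fold change and the highest mean count are named, and of marker lists those with the most counts or at 0 could be. The genes, lists and motifs were chosen with earlier results of these data known.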

Additional observations from a re-analysis of the deposited data

How the results depend on the processing

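The 30 counts and fold changes reported were recomputed under 14 other settings, which gave 396 values. Of these, 386 were fold changes that kept their direction and call or other values that moved little, among them counts that gained or lost 1 gene. Part of the 386 says little, since all counts past both thresholds downward were 0 in the fit and under every setting. Under glmTreat, Ccnd1, Ccnd2, Ccnd3 and Cdk2 were taken as unchanged because they passed both thresholds in neither fit. The settings were other scalings, filters, tests and thresholds, and leaving out each library. Of the 10 genes, 6 were past both thresholds upward in the fit and 5 to 6 under the alternatives. Ccne2 kept its log2 fold change of 1.17 but not its call under glmTreat (adjusted p = 0.016), and Ccnd2 turned from -0.21 to 0.0473 with scaling to EC markers. The CDK inhibitors past both thresholds upward were 2 with library size alone, with scaling to EC markers and with a mean of at least 50 counts, and 1 to 2 with a library left out. Of the other cyclins and kinases, 1 passed with a mean of at least 50 counts and with glmTreat. Of the cyclin degradation genes, 3 passed with glmTreat.

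Replicate numbers are shared by libraries of different mice, so the number does not pair mice. Over 13405 genes with a mean of at least 100 counts, the deviations of same-numbered libraries from their group means had a correlation of 0.0232. Libraries of a group differed little more than counting allows, so this correlation cannot show whether same-numbered libraries were handled together. With a replicate block, 6 of the 10 genes were past both thresholds, and over all genes 957 were higher and 272 lower, against 957 and 269 without it. Under scaling to EC markers 1326 were higher and 84 lower over all genes, 94.0% higher against 78.1% in the fit. The counts past both thresholds were 604 and 39 with glmTreat, and 719 and 160 with a mean of at least 50 counts. With 2 pools per group, the spread between mice was not measured.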

Other observations

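The cyclin and CDK families hold 34 further symbols in the tables, picked by the form of their symbol after values had been seen, and given as a description. Of these 32 were tested, and 2 passed both thresholds upward, Ccnf and Ccna1, which are described above, and 0 downward, and at an adjusted p under 0.01 in edgeR's quasi-likelihood test 7 were higher and 10 lower. These counts are near the shares over all genes, 5.9% and 1.66% past both thresholds and 29.3% and 27.8% at any fold, and so are no result about the families. The median log2 fold change was 0.0098. Ccnj had 975 and 885 counts in sham and 693 and 570 in PNX, a log2 fold change of -0.44. Cdk14, a kinase activated by cyclin Y at the membrane, had 8117 and 7111 in sham and 6037 and 5416 in PNX (-0.29). Ccnyl1, a relative of cyclin Y, had 1120 and 938 against 1226 and 1062 (0.28). Ccng2, a cyclin linked to cell cycle arrest, had 2779 and 2445 against 2710 and 2490 (0.12). Under scaling to EC markers Ccnj was at -0.18 and Cdk14 at -0.03 (adjusted p = 0.0067 and 0.31 in edgeR's test).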
